A study of Homo sapiens with 6 samples.

Results

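The 9 genes described here encode secreted proteins of the acute-phase response and of complement: lipocalin 2 (LCN2), the serum amyloid A proteins SAA1 and SAA2, the pentraxin PTX3, the serine protease inhibitor SERPINA3, and the complement components C3, CFB, C1R and C1S. They are 9 of the 23228 genes counted in each library. The genes were chosen by their role and with their read counts in the SCUBE3 shRNA and scramble libraries already known. Their differences between those groups are therefore given as a description, with no p-value.

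Polyadenylated RNA was measured in MDA-MB-231, a widely used line derived from a triple-negative human breast tumour, with a mesenchymal-like form. All cells were grown in DMEM with serum, received a lentivirus carrying a short hairpin RNA (shRNA) and were kept in puromycin for a week. In 3 libraries the shRNA was directed at SCUBE3, which encodes a secreted protein with EGF-like and CUB domains, and in the other 3 it was a scrambled sequence. The labels name neither the hairpin sequence nor the number of hairpins or infected pools, and do not say whether replicates are separate cultures, so the spread between libraries may be technical.

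Acute-phase proteins are made mainly by the liver after injury or infection, under interleukin-1 (IL-1) and interleukin-6 (IL-6), and many epithelial cells and fibroblasts make some of them locally. LCN2 withholds iron from bacteria by binding their siderophores. The serum amyloid A proteins bind lipids and attract leukocytes, and PTX3 and C1q both recognise microbes and dying cells. In the complement cascade C1R and C1S are the proteases of the classical pathway's C1 complex, C3 is the component on which all pathways converge, and CFB supplies the protease of the alternative pathway's C3 convertase. NF-kB, C/EBP and STAT3 factors are the textbook activators of these genes.

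The RNA of SCUBE3 was not detectably lower with its shRNA, and the libraries concerned are named by their label, knockdown. It had 99, 107 and 101 reads in libraries labelled knockdown, against 96, 91 and 80 reads in scramble libraries (log2 fold change 0.03 ± 0.14 SE; edgeR adjusted p = 0.871; exact two-sided permutation p = 0.5 on CPM, the reads per 1000000 reads in genes, n = 3 each; no p below 0.1 can be reached with these numbers). Its 95% interval ran from -0.26 to 0.31. SCUBE3 protein, which the labels say was examined by western blot, was not analysed here, and every direction given is that of the labels. Reads in genes numbered 24249429 to 25520901 in the libraries labelled knockdown and 21348509 to 24234762 in scramble libraries. Markers of the line were read in both groups: all 7 genes known to be high in MDA-MB-231 (VIM, CD44, AXL, EGFR, CAV1, MSN and PLAU) lay above 100 CPM in every library. CDKN2A and CDKN2B, known to be deleted in this line, had 0 reads in the libraries labelled knockdown and 1 and 0 reads in scramble libraries. Their levels differed between the groups all the same: 3 of the 7 were higher and 4 lower in libraries labelled knockdown, from 5.48-fold for PLAU to 0.452-fold for MSN. Of the 7 genes known to be low, 3 were higher (CDH1, GATA3 and KRT19), 2 lower (PGR and ERBB3), EPCAM did not pass and ESR1 was too low to test. Not all of them were low here. KRT19 averaged 254 ± 9.78 CPM in libraries labelled knockdown and 128 ± 5.27 CPM in scramble libraries (SD, n = 3 each), above the same 100 CPM mark. EPCAM averaged 15.7 ± 0.289 CPM in libraries labelled knockdown and 14.3 ± 0.669 CPM in scramble libraries. CDH1, which encodes E-cadherin, had 42, 52 and 58 reads in libraries labelled knockdown and 1, 2 and 0 reads in scramble libraries, while PGR, the progesterone receptor gene, had 0 reads in each library labelled knockdown and 25, 18 and 23 reads in scramble libraries. CDH1 entered the test only through the libraries labelled knockdown and could not be called lower. PGR entered only through scramble libraries and could not be called higher. The labels do not say whether both groups came from the same stock of cells, so the shRNA and any other difference between the cultures cannot be told apart. The groups differed across most of the transcriptome: 85.9% of 13606 tested genes passed an adjusted p of 0.05, with 43.4% of those tested higher and 42.5% lower relative to scramble.

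All 9 genes were read more in every library labelled knockdown than in any scramble library, as were 45.6% of all tested genes in CPM, and since the genes were chosen on this contrast nothing is read from that count. Together they took 932 to 954 CPM in the libraries labelled knockdown, against 120 to 123 CPM in scramble libraries. Without PTX3 the sum was 490 ± 2.31 CPM in libraries labelled knockdown and 6.90 ± 0.954 CPM in scramble libraries (SD, n = 3 each). PTX3 alone supplied 48.1% ± 0.770 of the 9 genes' reads in the libraries labelled knockdown and 94.3% ± 0.801 in scramble libraries. All 9 also entered the fit across all genes, LCN2, SAA1, SAA2, C1S and SERPINA3 through their reads in the libraries labelled knockdown, and were called higher there beside 43.4% of all tested genes; those calls are no test of genes chosen in this way. In bulk RNA, a larger number of expressing cells and more RNA per cell cannot be told apart.

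**Figure D1:**
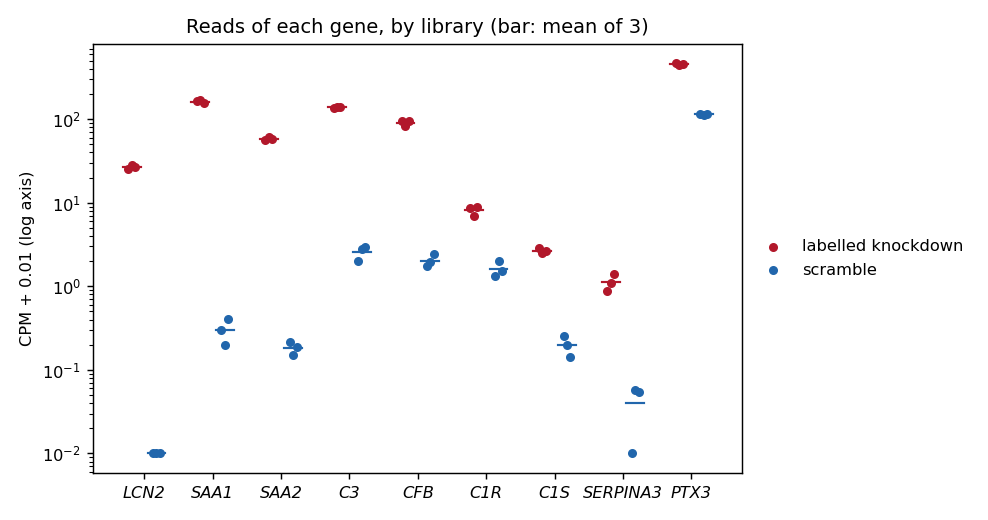
Reads in CPM (with 0.01 added, log axis) of the 9 genes in each library; points are libraries labelled knockdown (red) and scramble libraries (blue), and bars are means of 3. The red points lie above the blue points for each gene, LCN2 is at 0 in all 3 scramble libraries, and PTX3 is the gene whose scramble points lie above 100 CPM.

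The start regions are shown for LCN2, CFB and PTX3, so that the matched letters can be compared. Those of SERPINA3 and C1R were searched too and are described below without their sequences. Whether the genes share a control was not tested. The sequences are the 250 bases before the RefSeq start on GRCh38.p14, read 5′ to 3′ on the gene's own strand: chr9:128149203-128149452 (plus strand) for LCN2, chr6:31945845-31946094 (plus strand) for CFB and chr3:157436600-157436849 (plus strand) for PTX3. Capitals mark matches, on either strand, to GGGNNNNNCC (the core of kappa-B sites), TTNNGNAA (C/EBP) or TTCNNNGAA (STAT), and matches that overlap run together.
LCN2: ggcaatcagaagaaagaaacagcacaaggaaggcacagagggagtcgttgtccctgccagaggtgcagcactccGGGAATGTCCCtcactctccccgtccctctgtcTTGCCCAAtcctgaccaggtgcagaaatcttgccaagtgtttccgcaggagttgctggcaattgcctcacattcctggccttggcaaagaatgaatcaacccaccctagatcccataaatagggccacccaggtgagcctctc
CFB: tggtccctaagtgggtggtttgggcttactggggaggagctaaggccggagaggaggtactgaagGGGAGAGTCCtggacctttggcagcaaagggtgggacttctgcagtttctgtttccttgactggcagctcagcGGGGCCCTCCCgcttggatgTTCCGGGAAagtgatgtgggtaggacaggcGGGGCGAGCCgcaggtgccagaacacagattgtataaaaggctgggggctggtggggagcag
PTX3: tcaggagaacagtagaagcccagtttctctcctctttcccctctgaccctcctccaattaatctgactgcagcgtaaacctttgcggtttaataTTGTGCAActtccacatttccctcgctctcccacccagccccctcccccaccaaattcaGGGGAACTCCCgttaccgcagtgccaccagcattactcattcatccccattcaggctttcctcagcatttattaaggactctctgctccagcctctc

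In these windows LCN2 held 2 overlapping kappa-B core matches, which begin 176 and 175 bases before the start, and 1 C/EBP match. CFB held 4 kappa-B core matches, of which 1 pair overlaps, and 1 STAT match. PTX3 held 2 overlapping kappa-B core matches, beginning 97 and 96 bases before the start, and 1 C/EBP match. The kappa-B core is common: 54.4% of 35116 RefSeq promoter windows of the same length held at least 1, against 33.2% for TTNNGNAA and 6.57% for TTCNNNGAA. The full kappa-B consensus, a stricter pattern whose matches are all core matches too, was found in LCN2 (1 match) and PTX3 (2 overlapping matches), but not in the CFB window, and in 5.21% of all windows. The window of SERPINA3 held 1 kappa-B core match overlapping 1 C/EBP match, and those of the 2 C1R starts held C/EBP matches, with 1 kappa-B core and 1 STAT match at the second. Letters that match are not shown to be bound sites.

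LCN2 was not read in the scramble libraries. It had 619, 713 and 653 reads in the libraries labelled knockdown, against 0, 0 and 0 reads in scramble libraries, or 26.7 ± 1.35 CPM (SD, n = 3) and 0 CPM. A count of 0 over the 3 scramble libraries allows up to 0.0440 CPM, taken as 3 reads over the group, so the labelled knockdown level was at least 586-fold higher. With any 1 scramble library left out, the floor rests on fewer reads and the bound was 376-fold to 401-fold. LCN2 has no 50-base window in common with another GENCODE gene, so none of its reads is shared for that reason. Its spread between libraries labelled knockdown, a coefficient of variation of 5.04%, was near the 3.89% that read counting alone gives.

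SAA1 and SAA2, neighbouring copies on chromosome 11, were at trace level in scramble libraries. SAA1 had 3991, 4284 and 3790 reads in the libraries labelled knockdown, against 7, 4 and 9 reads in scramble libraries. These were 162 ± 5.81 CPM and 0.292 ± 0.106 CPM (SD, n = 3 each), a log2 fold change of 9.04 ± 0.33 (SE), or 525-fold. SAA2 had 1383, 1558 and 1386 reads in libraries labelled knockdown, against 5, 3 and 4 reads in scramble libraries. Its means were 58.2 ± 2.47 CPM and 0.175 ± 0.0330 CPM, a log2 fold change of 8.28 ± 0.42, or 310-fold. The groups lay far apart for both copies, and each group's libraries lay close together in reads. SAA4, the constitutive serum amyloid gene of the same cluster, had 3, 4 and 3 reads in libraries labelled knockdown and 0 in scramble libraries, so the change at this cluster was read almost wholly from SAA1 and SAA2.

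The split of reads between SAA1 and SAA2 is uncertain, because their transcripts are alike. Their GENCODE coding sequences, 366 bases each without the stop codon, differ at 11 positions (97.0% identity), and the longest stretch without a difference is 186 bases. Of the 50-base windows of the transcripts, 54.2% of those of SAA1 also occur in SAA2, and 53.1% of those of SAA2 in SAA1. With all other genes counted, 61.3% of the SAA2 windows are shared. The files also hold a gene named SAA2-SAA4, with 0 CPM in both groups, and its part in the count of SAA2 was not tested. The part that tells the copies apart best is bases 229 to 288 of the coding sequence, which hold 8 of the 11 differences, shown as capitals.
SAA1: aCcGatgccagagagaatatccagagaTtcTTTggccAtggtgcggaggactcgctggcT
SAA2: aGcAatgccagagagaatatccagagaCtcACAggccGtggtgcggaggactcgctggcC

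The files count reads that aligned to several places apart from the genes, so reads within identical stretches are held in neither count. SAA2 supplied 25.7%, 26.7% and 26.8% of the reads of both copies in the libraries labelled knockdown, and 41.7%, 42.9% and 30.8% in scramble libraries. Only 12, 7 and 13 reads stand behind the scramble shares, and their 95% Wilson intervals ran from 12.7% to 75.0% over the 3 libraries, so a difference in the split between the groups was not detectable at this depth. The intervals cover counting error only.

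PTX3 was the member already read at a high level in scramble cells. It had 11369, 11238 and 11118 reads in the libraries labelled knockdown, against 2829, 2409 and 2598 reads in scramble libraries. The means were 454 ± 12.4 CPM and 115 ± 1.95 CPM (SD, n = 3 each), a log2 fold change of 1.93 ± 0.04 (SE), or 3.81-fold. This was the smallest fold change of the 9 genes, on one of the tightest spreads: the coefficient of variation was 2.73% in libraries labelled knockdown and 1.70% in scramble libraries. With library totals in place of TMM scaling the log2 fold change was 1.98. PTX3 shares no 50-base window with another gene.

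SERPINA3, which encodes the protease inhibitor alpha-1-antichymotrypsin, stayed near the limit of detection. It had 21, 28 and 34 reads in libraries labelled knockdown, against 0, 1 and 1 reads in scramble libraries, or 1.12 ± 0.273 CPM and 0.0304 ± 0.0263 CPM (SD, n = 3 each). The ratio of pooled reads was 36.7, with an exact 95% counting interval of 9.86 to 308. With 1 library left out, the ratio ran from 23.6 without scramble replicate 1 to 50.3 without scramble replicate 2. The groups did not overlap, but the size of the difference is known only within that wide interval. In GENCODE, 56.6% of its 50-base windows also belong to a longer gene annotated across the same locus, AL049839.2.

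C3 and CFB, the core of the alternative pathway, were both low but clearly read in scramble libraries. C3 had 3375, 3611 and 3357 reads in the libraries labelled knockdown, against 49, 59 and 67 reads in scramble libraries. The means were 139 ± 1.98 CPM and 2.58 ± 0.498 CPM (SD, n = 3 each), a log2 fold change of 5.71 ± 0.12 (SE), or 52.2-fold. CFB had 2330, 2114 and 2315 reads in libraries labelled knockdown, against 42, 41 and 54 reads in scramble libraries. The means were 91.1 ± 7.19 CPM and 2.02 ± 0.340 CPM, a log2 fold change of 5.45 ± 0.14, or 43.6-fold. Libraries of each group lay close together, with CFB the more variable of the pair among libraries labelled knockdown: its coefficient of variation was 7.89%, where counting alone gives 2.11%, against 1.42% and 1.70% for C3. GENCODE places a gene, AL645922.1, across C2 and CFB that holds 78.2% of CFB's 50-base windows. How the authors' annotation treats that locus is not given in the sources used here.

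C1R and C1S, the proteases of the C1 complex, lay lower in both groups. C1R had 211, 179 and 215 reads in libraries labelled knockdown, against 32, 43 and 34 reads in scramble libraries. These were 8.16 ± 1.0 CPM and 1.61 ± 0.359 CPM (SD, n = 3 each), a log2 fold change of 2.29 ± 0.18 (SE), or 4.90-fold. C1S had 70, 64 and 64 reads in libraries labelled knockdown, against 6, 4 and 3 reads in scramble libraries. These were 2.67 ± 0.177 CPM and 0.189 ± 0.0574 CPM, a log2 fold change of 3.72 ± 0.44, or 13.2-fold. The groups did not overlap for either gene. C1S supplied 24.9%, 26.3% and 22.9% of the reads of both proteases in libraries labelled knockdown, and 15.8%, 8.51% and 8.11% in scramble libraries. These shares did not overlap either, but the 95% Wilson interval of scramble replicate 1, with 6 of 38 reads, ran from 7.44% to 30.4% and covers all 3 shares of the libraries labelled knockdown. The intervals of scramble replicates 2 and 3 (3.36% to 19.9% and 2.80% to 21.3%) lay below those 3 shares. C1R overlaps C1RL in GENCODE, with 24.0% of its 50-base windows in common, and C1S overlaps EMG1, with 5.98% in common.

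**Figure D2:**
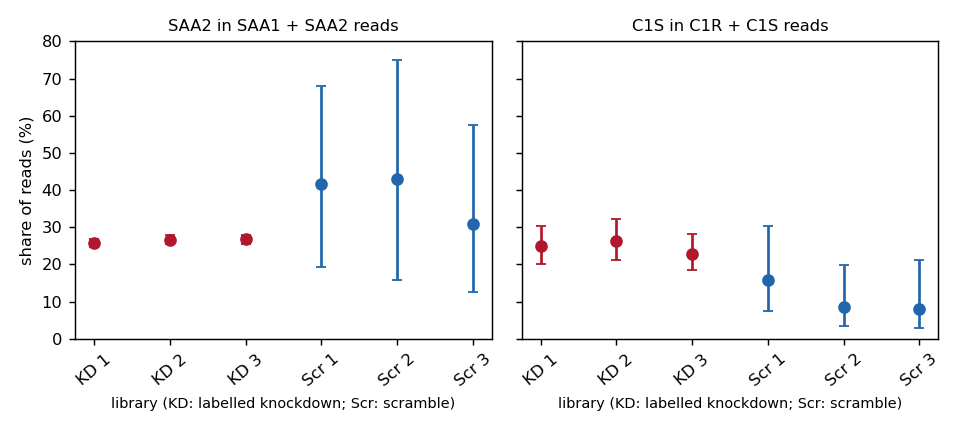
Share of reads (%) falling on SAA2 among SAA1 and SAA2 reads (left) and on C1S among C1R and C1S reads (right), per library, with 95% Wilson intervals; red, labelled knockdown (KD); blue, scramble (Scr). The SAA2 shares of the labelled knockdown libraries sit between 25.7% and 26.8%, inside every scramble interval, and the C1S shares between 22.9% and 26.3%, inside the interval of scramble replicate 1 and above those of scramble replicates 2 and 3.

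Per transcript length, the order of the genes differed between the groups. In RPKM (CPM divided by the length in kilobases of 1 GENCODE transcript per gene), the levels in libraries labelled knockdown were 240.5 ± 8.60 for SAA1 and 234 ± 6.40 for PTX3 (SD, n = 3 each), which did not differ beyond their spread. SAA2 followed at 84.8 ± 3.6. CFB at 31.8 ± 2.51 and LCN2 at 31.5 ± 1.59 did not differ beyond their spread, and C3 stood at 26.5 ± 0.377. C1R had a level of 3.07 ± 0.378, C1S 0.867 ± 0.0575 and SERPINA3 0.421 ± 0.103. In scramble libraries PTX3 led at 59.2 ± 1.01, and each of the others was below 1. Among those, the steps from CFB (0.704 ± 0.119) to C1R (0.607 ± 0.135), on to C3 (0.491 ± 0.0946) and on to SAA1 (0.432 ± 0.157) were each no more than their spread. LCN2 was last with no reads. The levels of SAA1 and SAA2 are understated here by the windows they share, and that of SAA2 perhaps also by windows shared with other genes. The levels of CFB, SERPINA3 and C1R may be understated too, with 78.2%, 56.6% and 24.0% of their windows shared with overlapping genes. LCN2, C3 and PTX3 share none. Similar RPKM, as for SAA1 and PTX3 or CFB and LCN2, therefore need not mean similar transcript levels.

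**Figure D3:**
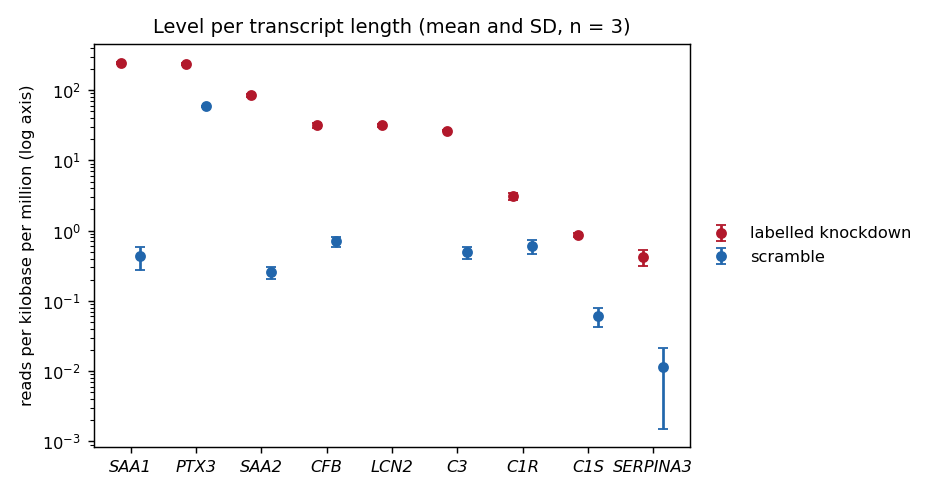
Level of each gene in RPKM, CPM per kilobase of transcript (log axis), mean and SD of 3 libraries labelled knockdown (red) and 3 scramble libraries (blue), in the order of the labelled knockdown levels. PTX3 is the gene with the smallest distance between the groups (234 and 59.2), and LCN2 has no scramble point because it had no reads there.

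Other complement components were mostly not read in these cells. Of 23 listed, 13 had 0 reads in all 6 libraries, among them the 3 chains of C1q (C1QA, C1QB and C1QC), and 5 could be tested, of which 3 rose and 0 fell, with a median log2 fold change of 1.18, against 0.01 over all tested genes. C2, the protease of the classical C3 convertase, had 291, 315 and 354 reads in libraries labelled knockdown, against 2, 1 and 2 reads in scramble libraries (log2 fold change 7.31 ± 0.67; edgeR adjusted p = 2.98e-26). CFD, which cleaves CFB, had 61, 71 and 56 reads in libraries labelled knockdown, against 1, 0 and 0 reads in scramble libraries (ratio of pooled reads 166, 95% counting interval 29.5 to 6610). CFP, properdin, the stabiliser of the alternative convertase, averaged 14.5 ± 0.631 CPM in libraries labelled knockdown and 6.14 ± 0.444 CPM in scramble libraries. With C3, CFB, CFD and CFP, the 4 proteins of the alternative pathway's convertase and its activation were all read in the libraries labelled knockdown. C1RL and C5 did not pass (log2 fold change -0.03 ± 0.15 and -0.20 ± 0.13). C4A and C4B, near-identical copies, had 0 reads in every library, but reads that aligned to both would be counted apart.

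Among soluble complement regulators, 4 of 12 could be tested, of which 1 rose and 3 fell, with a median log2 fold change of -1.13. The number that rose was 2 with scramble replicate 1, 2 or 3 or labelled knockdown replicate 3 left out. C4BPB, a chain of the C4b-binding protein, averaged 54.5 ± 1.88 CPM in libraries labelled knockdown and 6.38 ± 0.686 CPM in scramble libraries (SD, n = 3 each; log2 fold change 3.04 ± 0.09, edgeR adjusted p = 1.88e-31). Clusterin (CLU), an inhibitor of the terminal complex, fell to 44.0 ± 0.750 CPM in libraries labelled knockdown, against 76.8 ± 1.37 CPM in scramble libraries (-0.85 ± 0.05, adjusted p = 1.07e-19). SERPING1, the C1 inhibitor that blocks C1R and C1S, had 0, 2 and 1 reads in libraries labelled knockdown and 2, 1 and 0 in scramble libraries. CFI, the protease that inactivates C3b, had 13, 19 and 7 reads in libraries labelled knockdown and 0 in each scramble library, at least 11.5-fold higher, and was too low for the main test. Of the 11 complement receptors, 3 could be tested and all 3 fell, beside 42.5% of all tested genes: C1QBP (-1.60 ± 0.03), the beta-2 integrin chain ITGB2 (-1.73 ± 0.06) and C3AR1, the receptor of C3a (-0.96 ± 0.28, with 0.724 ± 0.200 CPM in libraries labelled knockdown and 1.36 ± 0.161 CPM in scramble libraries). ITGAM and ITGAX, the listed partner chains of ITGB2, were too low to test. They had 5 and 2 reads over the libraries labelled knockdown, against 2 and 10 over scramble libraries. The 3 tested genes do not stand for the 11 listed.

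Most other acute-phase proteins, those known mainly from the liver, were read too little to test. Of 18 listed, 7 had 0 reads in all libraries, CRP, HP and the alpha-1-acid glycoproteins ORM1 and ORM2 among them, and 3 could be tested, of which 2 rose and 0 fell (median log2 fold change 2.01). SERPINA1, which encodes alpha-1-antitrypsin, averaged 94.5 ± 2.82 CPM in libraries labelled knockdown and 10.5 ± 0.964 CPM in scramble libraries (SD, n = 3 each; 3.12 ± 0.07, edgeR adjusted p = 2.17e-34). ITIH4 rose at a low level (2.01 ± 0.35), and SERPINF2 did not pass (-0.09 ± 0.31). Relatives of the 9 genes were seldom read: 0 of 15 other lipocalins and 2 of the 9 other SERPINA genes in the files could be tested, SERPINA1 and SERPINA5 (-0.27 ± 0.36, not passed). Of 6 other pentraxins, NPTXR alone was tested and it rose (1.43 ± 0.10). Of 17 antimicrobial proteins, 10 had 0 reads in all libraries, S100A7, S100A8 and S100A9 among them, and 4 were tested, all of which rose: lactoferrin (LTF, 3.09 ± 0.75), the elastase inhibitor PI3 (2.58 ± 0.63), lysozyme (LYZ, 2.02 ± 0.54) and MMP9, a protease that LCN2 binds (1.94 ± 0.34). Each of these 4 averaged under 2 CPM in both groups. They entered the test only through their reads in the libraries labelled knockdown, so no fall could be found for them.

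Receptors for these secreted proteins moved both ways. Of 10 listed, 4 could be tested, of which 3 rose and 1 fell, with a median log2 fold change of 3.45. TLR2, a receptor through which serum amyloid A signals, averaged 30.0 ± 0.732 CPM in libraries labelled knockdown and 0.357 ± 0.110 CPM in scramble libraries (SD, n = 3 each; 6.34 ± 0.30, edgeR adjusted p = 3.35e-32). The formyl peptide receptor gene FPR1 had 348, 347 and 352 reads in libraries labelled knockdown, against 1, 3 and 1 in scramble libraries (7.44 ± 0.65). FPR2, the member of that family through which SAA1 acts, had 17, 13 and 8 reads in libraries labelled knockdown, against 2, 2 and 0 in scramble libraries, and was too low for the test. The lipoprotein receptor SCARB1 rose by less (0.56 ± 0.05) and TLR4 fell (-0.35 ± 0.05). The LCN2 receptors SLC22A17 and LRP2 were near 0, with 1 and 8 reads over the 3 libraries labelled knockdown and 0 and 18 reads over the scramble libraries.

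Cytokines, receptors and transcription factors known to drive these genes were mostly higher. Of 24 cytokine and receptor genes, 19 could be tested, of which 17 rose and 2 fell, with a median log2 fold change of 1.25. IL6 averaged 70.4 ± 1.36 CPM in libraries labelled knockdown and 0.552 ± 0.211 CPM in scramble libraries (SD, n = 3 each; 6.95 ± 0.24, edgeR adjusted p = 1.89e-37). The shared signalling chain of the IL-6 family, IL6ST, rose (1.51 ± 0.03), as did OSMR (1.25 ± 0.04) and the tumour necrosis factor receptor TNFRSF1B (7.21 ± 0.38), whereas IL6R, the IL-6 binding chain, fell (-2.91 ± 0.14). IL1A had 112, 93 and 92 reads in libraries labelled knockdown and 0 in each scramble library, at least 87.7-fold higher, and TNF had 24, 19 and 28 reads in libraries labelled knockdown against 0 in each scramble library, at least 21-fold higher. The IL-17 cytokine genes IL17A and IL17C had 0 reads in libraries labelled knockdown and 0 and 1 reads in scramble libraries.

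All 15 transcription factors and feedback genes could be tested, of which 11 rose and 4 fell, with a median log2 fold change of 0.55. NFKBIA, the NF-kB inhibitor that NF-kB itself induces, averaged 237 ± 2.71 CPM in libraries labelled knockdown and 63.8 ± 3.88 CPM in scramble libraries (SD, n = 3 each; 1.84 ± 0.04, edgeR adjusted p = 3.66e-33). BCL3 (3.08 ± 0.09), RELB (2.84 ± 0.09) and IRF1 (1.90 ± 0.06) rose, and so did NFKBIZ (2.02 ± 0.07), the nuclear cofactor known for LCN2 induction, and the C/EBP factor CEBPD (2.71 ± 0.10). STAT3 rose by less (0.53 ± 0.04). SOCS3, the feedback inhibitor that STAT3 induces, fell to 39.0 ± 1.35 CPM in libraries labelled knockdown, against 110 ± 8.20 CPM in scramble libraries (-1.54 ± 0.05), and CEBPA fell to 0.202 ± 0.0424 CPM in libraries labelled knockdown, against 2.69 ± 0.593 CPM in scramble libraries (-3.75 ± 0.43). Over all lists, 59 genes were tested, of which 42 rose, 13 fell and 4 did not pass; their median log2 fold change was 1.19. Beside these counts, and those of each list, 43.4% of all tested genes were higher and 42.5% lower. Some list genes entered the test only through the libraries labelled knockdown and could not be called lower. C2, CFD, ITIH4, FPR1, TLR2, IL6, TNFRSF1B, IL1A and TNF were among them. CEBPA and CFHR3 entered only through scramble libraries and could not be called higher. The counts and medians of the lists depend in part on this.

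**Figure D4:**
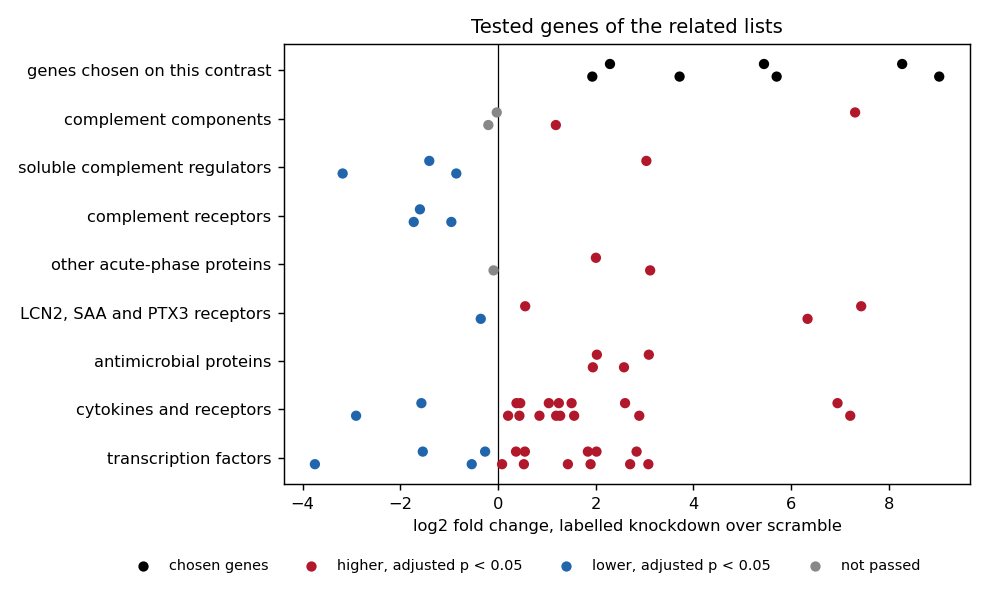
Log2 fold change (labelled knockdown over scramble) of tested genes in the related lists, with the lipocalin, SERPINA and pentraxin family lists left out. Red is higher, blue lower, grey not passed at an adjusted p of 0.05, and black the genes chosen on this contrast. Genes with 3 or fewer reads over the scramble libraries, LCN2, SERPINA3, CFD, IL1A and TNF, are not drawn. All 3 tested complement receptors are blue, while the cytokine and receptor row is red but for IL6R and IL22RA1.

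Genes next to the 9 on their chromosomes moved both ways, and C2 was the one tested neighbour with a log2 fold change above 3. Of 42 genes within 3 places on either side in RefSeq order, 28 could be tested, of which 9 were higher, 11 lower and 8 did not pass. Across all tested genes, 43.4% were higher and 42.5% lower. Another 10 neighbours were too low to test. The symbols of 4 were not found in the files: BBLN after LCN2, and NELFE, SKIC2 and DXO after CFB. This set was chosen after the data had been seen. Beside LCN2, PTGES2 had a log2 fold change of 0.74 and CIZ1 of -0.93. GTF2H1 and HPS5, which follow SAA1, had 0.08 (not passed) and 0.91. Of the 5 tested neighbours of PTX3, 4 were lower, with VEPH1 at -1.40 and SHOX2 at -1.50 on either side of it. C2 at 7.31 and CFB at 5.45 lie in the complement gene cluster of the MHC region on chromosome 6, with ZBTB12 between their RefSeq starts at -0.78. C1R and C1S are flanked by LPCAT3 (-0.01) and C1RL (-0.03), neither of which passed.

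**Figure D5:**
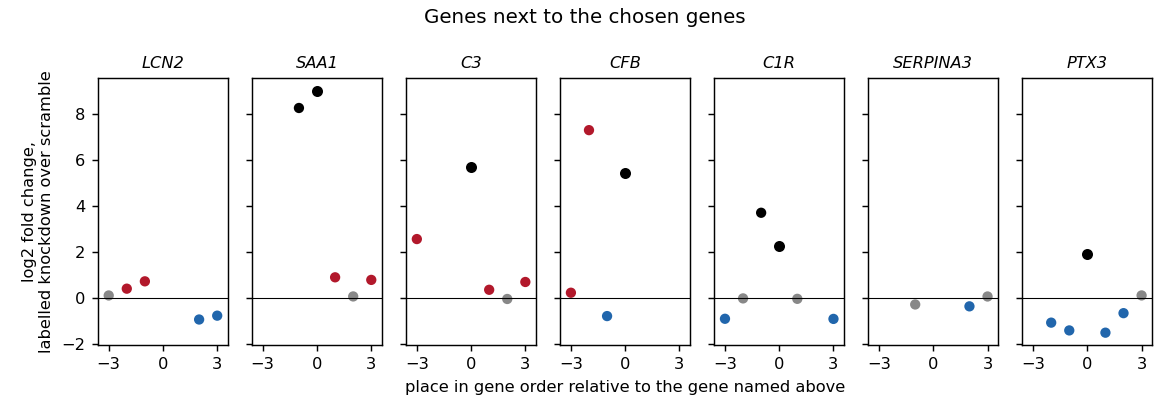
Log2 fold change (labelled knockdown over scramble) of tested genes up to 3 places away, in RefSeq gene order, from each gene named above its panel; black, the chosen genes; red, higher; blue, lower; grey, not passed. LCN2 and SERPINA3 themselves are not drawn, having 0 and 2 scramble reads. C2, 2 places before CFB, is the one tested neighbour above 3.

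By distance between profiles (Euclidean, on log2(CPM + 0.5) over the 6 libraries, among 13597 tested genes), the genes most like LCN2 were HLA-DPB1 (0.421), FAM83A (0.544) and PPL (0.619). HLA-DPB1 averaged 26.3 ± 1.23 CPM in libraries labelled knockdown and 0.0616 ± 0.0718 CPM in scramble libraries (SD, n = 3 each). The genes most like C3 were BST2 (0.215), LOXL4 (0.679) and TNFSF15 (0.788), of which BST2 averaged 136 ± 4.94 CPM in libraries labelled knockdown and 2.44 ± 0.642 CPM in scramble libraries. With libraries in 2 groups this distance mostly reflects the levels of the groups.

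Markers of other cells that make these proteins moved in part with them. Of 10 hepatocyte markers 1 could be tested, CYP2E1, which was higher; the 10 summed to 1.06 to 1.47 CPM in libraries labelled knockdown and 0.330 to 0.515 CPM in scramble libraries, with ALB at 1, 1 and 2 reads in libraries labelled knockdown and 0 reads in each scramble library, and TTR and APOB at 0 in all libraries. Of 10 leukocyte markers 3 could be tested: CD14 and CSF1R were higher (4.67 ± 0.39 and 4.12 ± 0.36; edgeR adjusted p = 5.64e-20 and 5.29e-18) and CD68 lower (-0.88 ± 0.04). The 10 summed to 167 to 177 CPM in libraries labelled knockdown and 278 to 286 CPM in scramble libraries, nearly all of it CD68. The pan-leukocyte gene PTPRC had 3, 4 and 4 reads in libraries labelled knockdown and 4, 2 and 3 in scramble libraries, and MPO and ELANE had 0 in all. Of 7 fibroblast markers 4 were tested and all were higher, among them COL1A2 (6.84 ± 0.78) and PDGFRB (2.84 ± 0.17). The 7 summed to 26.7 to 30.4 CPM in libraries labelled knockdown and 5.08 to 6.28 CPM in scramble libraries, with DCN at 0 in all libraries. Across all tested genes, 43.4% were higher and 42.5% lower. CYP2E1, CD14, CSF1R, COL1A2 and LUM entered the test only through the libraries labelled knockdown, so no fall could be found for them. The part of other cells in the differences of the 9 genes was not tested.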

How the data were processed

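RNA of 6 MDA-MB-231 libraries was sequenced as single 50-base reads from a stranded mRNA kit, per the labels' protocols. The submitters' processing notes name bcl2fastq, TopHat2 2.0.8b, HTSeq and the build hg19. Neither the annotation release nor the strand setting of the counting is given in the sources used here. Overlapping genes on either strand may therefore hold each other's reads. The authors deposited raw counts for each gene symbol, with no normalization; the 5 summary lines were left out of totals. Reads aligned to several places were 29.4% ± 0.175 of the total in libraries labelled knockdown and 34.1% ± 0.106 in scramble libraries (SD, n = 3 each).

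CPM are reads per 1000000 reads in genes. With edgeR 4.0.16 (R 4.3.3), filterByExpr left 13606 genes, and TMM-scaled counts went into a robust two-sided quasi-likelihood test of group alone. P-values were adjusted by Benjamini-Hochberg, with calls at 0.05. Each SE is a Wald SE from the fitted means and dispersions, held at or above counting error. The fit was tested on simulated data. Counts of 0 in a group gave a bound against 3 reads over that group, and 1 to 3 reads a ratio with an exact 95% interval; both cover counting error only. Within groups, pairs of libraries varied beyond sampling noise, at a chi-square of 1.69 to 3.55 per degree of freedom. Transcripts and windows came from GENCODE 29 and promoters from RefSeq, both on GRCh38; promoters were found for LCN2, CFB, C1R, SERPINA3 and PTX3.

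The members and lists were chosen with earlier results of these data known. Named genes are the 9 members, SCUBE3, up to 4 genes per list by adjusted p and the 3 nearest profiles of LCN2 and C3. The unpassed or untested list genes given by name, IL6R, IL1A, TNF, NFKBIZ, CEBPA, CEBPD, STAT3, SOCS3, several markers of the line and the neighbours were named after their values were seen. Single values of some list genes are not reported here. Alternatives were DESeq2's size factors, library totals, no filter, DESeq2 1.42.0, limma-voom (limma 3.58.1), a replicate block and each library left out.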

Additional observations from a re-analysis of the deposited data

Results flagged for a closer look

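Outside the counts per gene, the share of reads lying in more than 1 gene was higher in the libraries labelled knockdown, at 0.593% ± 0.00441, against 0.537% ± 0.00504 in scramble libraries (SD, n = 3 each). These reads were given to no gene. Their part in the counts of SAA2, CFB, C1R, C1S and SERPINA3, which share windows with other annotated genes, was not tested.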

How the results depend on the processing

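The results were computed again under 6 other settings and with each of the 6 libraries left out. The counts of calls over all genes and over all related lists together stayed within 1.5 times of those reported. Each of the 9 genes kept its direction, which is no test of genes chosen on this contrast. For LCN2, set against a floor of 3 reads, the direction could not change. Genes called numbered 11450 to 11630 with a library left out, 11295 with DESeq2 and 12483 without the low-count filter. SCUBE3 had a log2 fold change of -0.0503 without scramble replicate 3 and 0.0796 without scramble replicate 2, the ends of its range, and never passed. Whether the replicate numbers pair the libraries was not settled. Deviations of same-numbered libraries correlated at 0.0555, 0.0417 and 0.000932, against -0.0665 to 0.0257 for libraries with different numbers. Of the 6 libraries, 4 correlated best with their own number. With the number as a replicate block 11706 genes were called, and 42 related genes rose and 13 fell, as without it. Small lists depended on the filter: without it 3 soluble complement regulators were higher in place of 1, 4 other acute-phase proteins in place of 2 and 1 complement receptor in place of 0, 1 other lipocalin in place of 0 and 1 lower acute-phase protein in place of 0, because more genes were tested. Soluble regulators higher numbered 2 with any scramble library or labelled knockdown replicate 3 left out. Depth limits the scramble values of LCN2, SERPINA3, SAA1, SAA2 and C1S, which rest on 0 to 20 reads each over the 3 libraries.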
